A study of Homo sapiens with 12 samples.

Results

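The comparison described here set CHL1 melanoma cells that had acquired resistance to palbociclib (the derivative CHL1AR991) against their parental line, over all genes of the deposited CHL1 count table. Its members were the 3 parental and 3 resistant CHL1 libraries, 6 of the 12 samples of the series. The other 6 samples are 3 parental and 3 palbociclib-resistant libraries of a second melanoma line, A375, whose resistant cells had 7 months of the drug and were also kept in 4 µM. They serve to test where the lines differed, for A375 values set beside those of CHL1 and in an alternative fit to all 12 libraries. The parental cells (group label CHL1control) grew without palbociclib in supplemented RPMI medium. The resistant cells had been taken through rising palbociclib concentrations for 3 months and were then kept in 4 µM of the drug. Palbociclib was left out of the medium for 72 h before RNA was taken, so the libraries describe cells out of the drug. The labels do not say whether CHL1AR991 is 1 clone or a mixed population, nor whether the 3 libraries of a group came from separate cultures. The p-values therefore carry the spread of these samples alone, and that spread may be technical.

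Palbociclib blocks the cyclin-dependent kinases CDK4 and CDK6, which with D-type cyclins phosphorylate the retinoblastoma protein RB1. Unphosphorylated RB1 holds back the E2F transcription factors and with them entry into S phase. Cyclin E with CDK2 can phosphorylate RB1 as well, and inhibitors of the CDKN1 and CDKN2 families restrain these kinases. The genes of G2 and mitosis are controlled later in the cycle, through the MuvB complex, which binds promoters at short elements called CHR.

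Resistant CHL1 cells had about 3 times the CCNE1 mRNA and more CDK6 mRNA than parental cells, and strongly reduced BMP7, BMP2, PPARG and EMC10. Of 70 tested genes of G2 and mitosis 25 were higher (35.7%, against 9.11% of all genes), and 15 without parental replicate 3. A shift of smaller size ran along chromosome 3. There 481 of 684 expressed coding genes were lower (70.3%, against 15.2% over all chromosomes).

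The 6 libraries held 25567312 to 29230296 counts, and 3 counts, the floor used for undetected genes, stood for 0.103 to 0.117 CPM. CPM are counts scaled to a common library total, with a correction for library composition. They are not divided by transcript length, so they compare a gene between libraries and not 1 gene with another. Principal component 1, with 53% of the variance, separated the groups, and component 2 held 14.9%. In bulk RNA, fewer cells of a kind and less RNA per cell cannot be told apart. Melanocyte lineage and pigment markers summed to 2388 to 2697 CPM in parental and 2577 to 2864 CPM in resistant libraries. SOX10, the neural crest factor that defines the lineage, had a mean of 1014 CPM in parental and 991.6 CPM in resistant cells. The pigment enzyme TYR (0.509 and 0.494 CPM) and the melanosome genes PMEL (1.03 and 0.810 CPM) and MLANA (0.705 and 0.512 CPM) were near the floor, and KIT was not among the genes listed. Summed markers of keratinocytes and epithelia ran from 174.5 to 200.8 CPM, of fibroblasts from 18.8 to 29.4 CPM, of leukocytes from 13.5 to 16.1 CPM and of endothelium from 7.52 to 9.54 CPM over all 6 libraries. Of these lists 8, 6, 5 and 2 members passed the count filter. Of the defining markers KRT5, COL1A2 and COL3A1 had 0 or 1 count in each library, and CD3E and MS4A1 were not listed. Other members of these lists were detected. The leukocyte marker PTPRC had means of 9.2 CPM in parental and 8.875 CPM in resistant cells. In the same order PERP of the epithelial list had 143.1 and 129 CPM and LUM of the fibroblast list 14.22 and 7.113 CPM. The endothelial marker TIE1 had 6.293 and 6.075 CPM. Whether these mRNAs came from other kinds of cells was not tested.

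Of 17219 genes tested, 3645 passed an adjusted p of 0.05 in edgeR's quasi-likelihood test (21.2%). Of these 1569 were higher (9.11%) and 2076 lower (12.1%) in resistant cells. Most differences were small, with a median absolute log2 fold change of 0.34 among the called genes. A 2-fold change was added in 296 genes (1.72%), 90 higher and 206 lower, and an 8-fold change in 19, 1 higher and 18 lower. The 3 values of each group did not overlap in 6346 genes (36.9%) and in 3597 of those called. In the text "rose" and "fell" mean a called difference, and fold changes are log2 of resistant over parental ± SE.

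**Figure D1:**
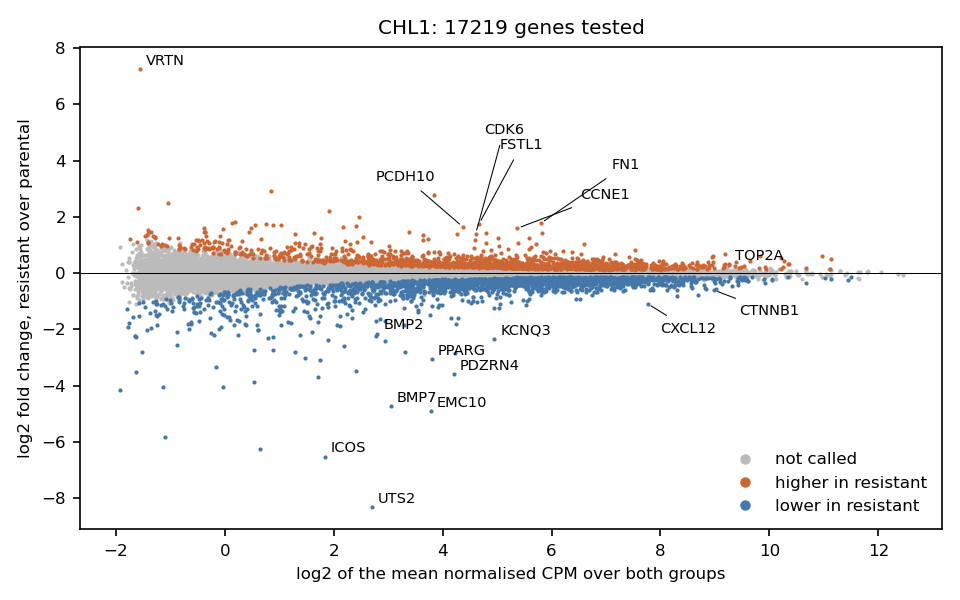
Log2 fold change of resistant over parental CHL1 (vertical) against log2 of the mean normalised CPM of both groups (horizontal) for the 17219 genes tested, 1 point a gene, orange where called higher, blue where called lower and grey where not called. The lower side reaches further: 206 genes were called at 2-fold lower and 90 at 2-fold higher, and UTS2, EMC10 and BMP7 lie below -4.

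Within the CDK4/6-RB axis, CCNE1 and CDK6 stood apart from the other members. CCNE1 encodes cyclin E, the partner of CDK2 at the start of S phase. Its level was 20.6, 21.1 and 20.1 CPM in the parental and 60.8, 63.2 and 62.3 CPM in the resistant libraries. The groups were far apart and tight, and the log2 fold change was 1.59 ± 0.05 (adjusted p = 4.9e-09). The 20 nearest expressed coding genes on chromosome 19 had a median log2 fold change of 0.07. CDK6, 1 of the 2 kinases that palbociclib binds, was at 14.5, 14.1 and 11.7 CPM in parental and 35.6, 30.6 and 39.5 CPM in resistant libraries. Every resistant library was above every parental one, with a log2 fold change of 1.39 ± 0.10 (adjusted p = 3.7e-06) against a median of 0.04 over its 20 neighbours on chromosome 7. CDK4, the other target kinase, was at 216, 197 and 222 CPM in parental and 192, 193 and 188 CPM in resistant libraries, a change of -0.15 ± 0.05 that missed the threshold (adjusted p = 0.053). It passed without parental replicate 2, without a count filter, with a 1 CPM filter and with replicate as a blocking term, at an adjusted p of 0.016 to 0.20 over all alternatives.

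The inhibitors of these kinases moved upwards where they were called. CDKN2C, an inhibitor of CDK4 and CDK6, went from 60.9, 60.01 and 57.1 CPM to 86.2, 91.7 and 74.8 CPM, without overlap (0.51 ± 0.07, adjusted p = 0.00032). CDKN1C, an inhibitor of the CDKN1 family, rose by 0.48 ± 0.09, CDKN2B of the other family by 0.41 ± 0.10 and CDKN1B, which binds cyclin E with CDK2, by 0.24 ± 0.05. The p53 target CDKN1A (0.12, adjusted p = 0.40) and CDKN2A (0.09, adjusted p = 0.45) did not pass. RB1 itself was at 101, 105 and 100.4 CPM in parental and 89.5, 87.5 and 86.8 CPM in resistant libraries. That fall was small but without overlap, at -0.22 ± 0.04 (adjusted p = 0.0041), where the 20 neighbours on chromosome 13 had a median of -0.12. CDK2 (-0.29 ± 0.05), its activating phosphatase CDC25A (-0.41 ± 0.05, on chromosome 3), the E2F partner TFDP1 (-0.21 ± 0.04) and the second cyclin E gene CCNE2 (-0.19 ± 0.05) fell too. The CCNE2 call was lost without parental replicate 1, without resistant replicate 3 and in the fit to all 12 libraries (adjusted p up to 0.25). The D-type cyclins CCND1 (0.14, adjusted p = 0.12) and CCND3 (0.13, adjusted p = 0.14) and E2F1 (0.06, adjusted p = 0.50) did not pass, although CCND1 did without resistant replicate 1 and without a count filter. In all 8 of 33 members tested were higher (24.2%, against 9.11% of all genes) and 5 lower (15.2%, against 12.1%), with a median log2 fold change of 0.09 against 0.00 over all genes tested. The higher count was 5 in the fit to all 12 libraries.

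**Figure D2:**
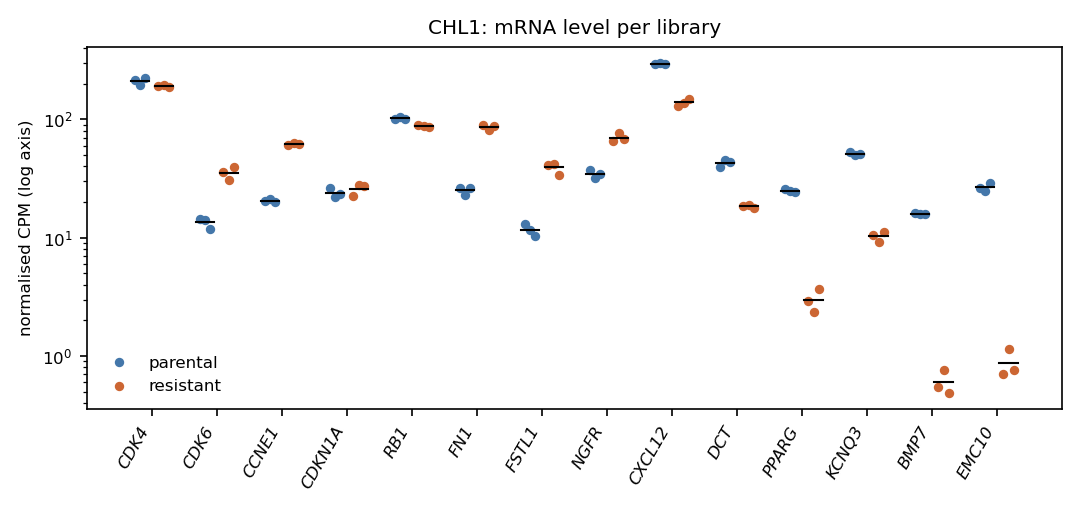
Normalised CPM on a log axis for 14 genes in each CHL1 library, blue points for the 3 parental and orange for the 3 resistant libraries, with a black bar at each group's mean. CCNE1 rose from a mean of 20.6 to 62.1 CPM and CDK6 from 13.4 to 35.2 CPM, while the groups of CDKN1A overlap.

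Part of the genes of G2 and mitosis rose, each by a small amount. Of 70 members tested 25 were higher (35.7%, against 9.11% of all genes) and 0 lower (12.1% of all genes) in edgeR, DESeq2 and limma-voom (3 lower at an unadjusted p below 0.05), with a median log2 fold change of 0.14. ANLN, BUB1, KIF4A and BIRC5 had the smallest adjusted p. The promoters of ANLN and KIF4A are shown because they carry the CHR element and that of BUB1 because it carries only the other element of this gene class, the CCAAT box. Each run is the 250 bases before the RefSeq start site in GRCh38.p14, 5′ to 3′ on the gene's strand, with capitals for matches to CHR (TTTGAA or TTTAAA) or CCAAT on either strand. ANLN lies at chr7:36389612-36389861 (+), KIF4A at chrX:70289854-70290103 (+) and BUB1 at chr2:110678064-110678313 (-).
ANLN: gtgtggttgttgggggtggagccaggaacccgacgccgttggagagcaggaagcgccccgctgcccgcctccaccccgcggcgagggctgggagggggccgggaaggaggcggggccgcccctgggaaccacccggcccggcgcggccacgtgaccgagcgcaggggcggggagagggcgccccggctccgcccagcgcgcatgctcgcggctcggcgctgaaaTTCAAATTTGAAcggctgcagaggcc
KIF4A: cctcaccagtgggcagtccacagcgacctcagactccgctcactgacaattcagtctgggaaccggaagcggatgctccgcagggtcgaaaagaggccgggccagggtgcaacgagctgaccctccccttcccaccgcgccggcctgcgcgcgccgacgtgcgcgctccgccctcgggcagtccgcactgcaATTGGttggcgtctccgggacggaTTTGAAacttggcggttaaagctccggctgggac
BUB1: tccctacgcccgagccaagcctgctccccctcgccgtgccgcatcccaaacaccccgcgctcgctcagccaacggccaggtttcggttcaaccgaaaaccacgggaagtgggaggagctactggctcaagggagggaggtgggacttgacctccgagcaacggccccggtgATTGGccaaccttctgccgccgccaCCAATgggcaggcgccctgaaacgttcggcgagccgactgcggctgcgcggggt

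In the ANLN window a CHR match stands on each strand in 1 joined run near the start site. KIF4A has a CHR match with a CCAAT match upstream of it, and BUB1 has 2 CCAAT matches and no CHR match. RefSeq promoters were found for 61 of the 70 members. A CHR match was present in 39 of these 61 (63.9%), against 14.6% of the 11572 promoters of tested genes and 22.1% of all 27305 promoters of this length. Within the list it was present in 18 of 23 promoters of higher members (78.3%) and in 21 of 38 of members not called (55.3%). CCAAT matches were found in 48 of the 61 promoters (78.7%) and in 35% of those of tested genes. A match describes these letters in this window and is not a binding site.

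ANLN, the actin-binding anillin of the cleavage furrow, was at 368, 374.9 and 339 CPM in parental and 460.2, 445 and 431 CPM in resistant libraries. The groups did not overlap, and the log2 fold change was 0.30 ± 0.05 (adjusted p = 0.0012). BIRC5, the survivin of the chromosomal passenger complex, went from 187, 181 and 172 CPM to 225, 226 and 209 CPM (0.29 ± 0.05, adjusted p = 0.0011). The checkpoint kinase BUB1 rose by 0.23 ± 0.04 and the chromokinesin KIF4A by 0.27 ± 0.05, both without overlap. TOP2A, the topoisomerase that untangles sister chromatids, rose by 0.30 ± 0.06, the ubiquitin-conjugating enzyme UBE2C by 0.27 ± 0.05 and CDK1, the kinase that starts mitosis, by 0.20 ± 0.05. The cyclin genes CCNB1 (0.13, adjusted p = 0.092) and CCNA2 (0.11, adjusted p = 0.23), AURKA (0.07, adjusted p = 0.42) and the proliferation antigen MKI67 (-0.04, adjusted p = 0.78) did not pass. MKI67 was at 335, 334 and 292 CPM in parental and 354, 271 and 308 CPM in resistant libraries, which overlap. Without parental replicate 3, 15 members were higher, and without resistant replicate 1, 1 was lower.

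Genes of G1/S and DNA replication did not move as a group. Of 52 members 7 were higher (13.5%) and 5 lower (9.62%), against 9.11% and 12.1% of all genes, with a median of 0.02. FEN1, which trims Okazaki fragments, rose by 0.19 ± 0.04 and the primase-associated subunit POLA2 by 0.24 ± 0.05, and both lie on chromosome 11. Their 20 nearest expressed coding genes had medians of 0.17 and 0.18. The helicase subunit MCM2 fell by 0.37 on the log2 scale and lies on chromosome 3, and the uracil glycosylase UNG changed by -0.19 ± 0.04, a call lost in the fit to all 12 libraries (adjusted p = 0.095). The lower count was 2 or 3 without parental replicate 1 or 2, without resistant replicate 1 or 3 and in the fit to all 12 libraries, and the last of these left 3 higher.

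Histone genes of the replication-dependent class, whose mRNAs mostly lack a poly(A) tail, were lower in 5 of 11 members tested (45.5%, against 12.1% of all genes) and higher in 0 (edgeR, DESeq2 and limma-voom, and 0 at an unadjusted p below 0.05). Their median log2 fold change was -0.69. H2BC12 was at 13.5, 12.2 and 10.8 CPM in parental and 7.44, 6.66 and 6.69 CPM in resistant libraries, a fall without overlap (-0.82 ± 0.10, adjusted p = 0.00016). H2AC6 (-0.97 ± 0.16), H2BC21 (-1.03 ± 0.16) and H2BC4 (-0.81 ± 0.22) fell at levels of 0.693 to 7.00 CPM. Without parental replicate 1, 3 members were lower, and the H2BC4 call was then lost, as it was without resistant replicate 2. These genes have near-identical copies that can share reads.

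Targets of p53 did not rise as a group in CHL1. Of 35 members tested 7 were lower (20%, against 12.1% of all genes) and 1 higher (2.86%, against 9.11%). MDM2, the ligase that restrains p53, was at 92.2, 91.3 and 84.5 CPM in parental and 83.9, 76.7 and 77.9 CPM in resistant libraries. The groups sat next to each other without overlap, at -0.17 ± 0.05 (adjusted p = 0.044). That call was lost in 7 of 13 alternatives, among them those without parental replicate 1 or 2 and those without resistant replicate 2 or 3, and the highest adjusted p over the alternatives was 0.16. The DNA repair gene XPC (-0.45 ± 0.06, chromosome 3), CYFIP2 (-0.37 ± 0.05), the sestrin SESN1 (-0.37 ± 0.08) and the apoptosis effector BAX (-0.34 ± 0.07) fell. THBS1, a matrix protein as well as a p53 target, was the member that rose, from 33.9, 25.8 and 18.1 CPM to 48.3, 47.7 and 47.1 CPM (0.87 ± 0.15). A further member was called higher without parental replicate 1 or 3 or without resistant replicate 1. MDM4, the MDM2 relative, had an adjusted p of 0.99 and overlapping groups of 26.3 to 30.5 CPM and 25.6 to 33.8 CPM.

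Among the arginine methyltransferases and the partners of PRMT5, 2 of 14 members were higher (14.3%) and 3 lower (21.4%), against 9.11% and 12.1% of all genes. PRMT5 itself, which methylates histones and splicing factors, was at 107, 102 and 104 CPM in parental and 108, 106 and 109.7 CPM in resistant libraries. Those values overlap, and its change of 0.05 did not pass (adjusted p = 0.49). WDR77, the obligate partner of PRMT5, went from 108, 104 and 111 CPM to 88.6, 91.0 and 89.0 CPM, a small fall without overlap (-0.27 ± 0.04, adjusted p = 0.0014). Its 20 neighbours on chromosome 1 had a median of -0.15. PRMT1 (-0.16 ± 0.05), PRMT2 (0.18 ± 0.05) and the adaptor CLNS1A (0.16 ± 0.05) had calls that were lost in 2 to 6 of 13 alternatives, and that of PRMT2 without parental replicate 1. The 20 neighbours of PRMT2 on chromosome 21 had a median of 0.16. Without parental replicate 1, 0 members were higher, and without parental replicate 3 or without resistant replicate 1 or 3, 1 was higher and 1 lower. PRMT1 lost its call without parental replicate 1 or 3 or without resistant replicate 1 or 3, and CLNS1A without any parental replicate or without resistant replicate 1 or 3.

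Besides CCNE1 and CDK6, 13 genes made up the 15 highest rises among genes of at least 10 CPM. FN1, the fibronectin of the pericellular matrix, was at 26.4, 23.1 and 26.4 CPM in parental and 89.1, 81.2 and 88.5 CPM in resistant libraries. All 3 resistant libraries were above 80 CPM, and the log2 fold change was 1.77 ± 0.07 (adjusted p = 1.2e-08). FSTL1, a secreted follistatin-like glycoprotein, went from 13.1, 11.6 and 10.3 CPM to 41.4, 42.1 and 34.1 CPM (1.75 ± 0.10, adjusted p = 6.1e-07). It lies on chromosome 3, where 17 of its 20 nearest expressed coding genes were lower. The protocadherin PCDH10 rose by 1.65 ± 0.08, from 10.6, 9.44 and 9.86 CPM to 28.99, 32.4 and 32.5 CPM. HSPB8, a small heat-shock protein, rose by 1.45 ± 0.09, TRIM48, a tripartite-motif gene with close copies on chromosome 11, by 1.44 ± 0.08 and the potassium channel regulator KCNIP1 by 1.38 ± 0.09. The laminin chain LAMA2 rose by 1.34 ± 0.09, the oncostatin M receptor OSMR by 1.24 ± 0.07 and the proteoglycan VCAN by 1.23 ± 0.10. The lectin CLEC2B (1.21 ± 0.11) and the gelatinase MMP2 (1.19 ± 0.08) followed. The pseudogene CD24P4 (1.44 ± 0.07) has a near-identical parent gene, CD24, with which it can share reads. The pseudogene MTATP8P1, a copy of mitochondrial sequence, was at 3.53 to 3.84 CPM in parental and 4.07, 15.1 and 56.3 CPM in resistant libraries. It rested on resistant replicates 2 and 3, and its call was lost without parental replicate 2 and with limma-voom (adjusted p up to 0.12).

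The 15 lowest fold changes among genes of at least 10 CPM began with UTS2. It encodes the vasoactive peptide urotensin 2 and had 1072 counts over the 3 parental libraries and 3 over the resistant ones, a depth-corrected ratio of 357.8 whose exact 95% interval for counting error ran from 122.1 to 1738. EMC10, part of a membrane protein insertase of the endoplasmic reticulum, was at 26.2, 24.6 and 29.1 CPM in parental and 0.705, 1.14 and 0.767 CPM in resistant libraries. No resistant library came near the parental level, and the log2 fold change was -4.91 ± 0.14 (adjusted p = 1.4e-09). Its 20 neighbours on chromosome 19 had a median of -0.12. PDZRN4, a PDZ-domain ubiquitin ligase gene, went from 33.98, 32.1 and 36.1 CPM to 2.98, 3.02 and 2.54 CPM (-3.58 ± 0.09). PPARG, the nuclear receptor of fat storage, went from 25.7, 24.6 and 24.4 CPM to 2.94, 2.36 and 3.66 CPM (-3.06 ± 0.12, adjusted p = 1.6e-08). It lies on chromosome 3 among neighbours with a median of -0.34, so its fall was far deeper than theirs. KCNQ3, a subunit of the neuronal M-channel, went from 53.04, 49.9 and 51.1 CPM to 10.5, 9.12 and 11.2 CPM (-2.33 ± 0.08). TMEM273 (-2.85 ± 0.11), the splicing regulator RBFOX1 (-2.80 ± 0.12), the doublecortin-like kinase DCLK1 (-2.42 ± 0.17) and the ketone-body enzyme OXCT1 (-2.22 ± 0.11) fell as well. The fibrillar collagen COL5A1 (-1.83 ± 0.13), the retinoic acid binder CRABP1 (-1.82 ± 0.09), the mitochondrial creatine kinase CKMT1B (-1.70 ± 0.12), which has a near-identical copy, and KAZN (-1.70 ± 0.16) completed the 15 lowest with BMP7 and BMP2.

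The BMP ligands BMP7 and BMP2 fell, and other members of the TGF-beta and BMP list went either way. BMP6, at 1.45 and 1.22 CPM, did not pass (-0.26, adjusted p = 0.35), and BMP4 and BMP5 did not pass the count filter. BMP ligands bind receptor kinases that activate SMAD proteins, and latent binding proteins and follistatins hold ligands outside the cell. BMP7 was at 16.2, 15.7 and 15.9 CPM in parental and 0.548, 0.763 and 0.488 CPM in resistant libraries. The level dropped in all 3 by a similar amount, at -4.72 ± 0.14 (adjusted p = 1.4e-09). BMP2 went from 12.7, 11.1 and 10.4 CPM to 1.88, 2.60 and 3.17 CPM (-2.15 ± 0.15, adjusted p = 2.7e-06). BMP7 and BMP2 lie on chromosome 20, and the 20 expressed neighbours of BMP7 had a median of 0.01. The latent binding proteins split, with LTBP1 at -0.50 ± 0.05 and LTBP2 at 0.93 ± 0.14. The induced matrix protein TGFBI fell (-0.67 ± 0.08), and the signal transducer SMAD3 rose (0.59 ± 0.10). ID1 (0.05, adjusted p = 0.51), ID2 (0.31, adjusted p = 0.14) and ID3 (0.18, adjusted p = 0.18), transcriptional targets of BMP signals, did not pass. In all 5 of 36 members were higher (13.9%) and 9 lower (25%), against 9.11% and 12.1% of all genes. The higher count was 8 without a count filter and with replicate as a blocking term.

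Extracellular matrix genes split by member rather than moving one way. Of 51 tested 14 were higher (27.5%) and 10 lower (19.6%), against 9.11% and 12.1% of all genes, with a median of 0.03. Besides FN1, LAMA2 and VCAN, the basement membrane linker NID1 went from 46.9, 44.7 and 47.2 CPM to 81.1, 79.4 and 77.8 CPM (0.78 ± 0.05, adjusted p = 1.1e-06). The collagen cross-linking enzyme LOXL1 rose by 0.98 ± 0.09, while its relative LOXL2 changed by -0.68 ± 0.10. SPARC, which shapes collagen assembly, fell by 0.41 on the log2 scale and the microfibril gene FBN1 by 0.54. Fibroblast markers overlap this list, and of 6 tested 1, LUM, was lower (-1.01 ± 0.14), at 17.3, 11.7 and 13.6 CPM against 8.31, 6.41 and 6.62 CPM. Matrix proteases and their inhibitors had 4 of 24 members higher (16.7%), MMP2 and the plasminogen activator PLAT (0.62 ± 0.05) among them, and 3 lower (12.5%), which were 5 without parental replicate 3 or without a count filter. The lower ones included the inhibitor TIMP4 (-2.00 ± 0.23, at most 2.80 CPM, chromosome 3) and the coagulation factor F3 (-1.13 ± 0.13).

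Integrins, which hold cells to that matrix, were lower in 7 of 18 members (38.9%, against 12.1% of all genes) and higher in 1 (5.56%, against 9.11%). ITGAV, a partner for several beta chains, went from 524, 493 and 517 CPM to 379.8, 354 and 414 CPM, without overlap (-0.42 ± 0.06, adjusted p = 0.00033). ITGB7 fell by 1.83 on the log2 scale at levels of 1.421 to 7.29 CPM, and ITGA9 (-0.55 ± 0.05) and ITGB5 (-0.31 ± 0.06) lie on chromosome 3. In the fit to all 12 libraries ITGA9 lost its call (adjusted p = 0.24). In the lower direction the count was 4 in the fit to all 12 libraries, and the higher count was 0 without parental replicate 2 and 2 without parental replicate 3 or resistant replicate 2.

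Among cadherins and other adhesion genes 8 of 21 were higher (38.1%) and 4 lower (19.0%), against 9.11% and 12.1% of all genes. The hyaluronan receptor CD44 rose from 41.6, 37.9 and 37.8 CPM to 56.6, 56.7 and 56.5 CPM (0.53 ± 0.05, adjusted p = 4.3e-05). The junction protein JAM3 rose by 0.37 ± 0.04, CDH13 by 0.68 ± 0.10 and the neuronal adhesion gene NRCAM by 0.72 ± 0.15. L1CAM, of the same family as NRCAM, fell from 42.6, 38.8 and 41.6 CPM to 19.6, 23.4 and 23.3 CPM (-0.89 ± 0.08). The gene CHL1, a close homologue of L1CAM that shares its name with the cell line, was at 273, 272 and 265 CPM in parental and 183, 179 and 177 CPM in resistant libraries. It fell without overlap (-0.59 ± 0.04, adjusted p = 2.0e-06) and lies at the start of chromosome 3. Of the 4 lower members 2 lie on that chromosome, and 2 were lower in the fit to all 12 libraries.

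Receptor tyrosine kinases, which feed the ERK and PI3K pathways, were lower in 12 of 33 members (36.4%, against 12.1% of all genes) and higher in 2 (6.06%, against 9.11%), at a median of -0.05. Of the 12, 3 lie on chromosome 3. The ephrin receptor EPHA7 went from 30.8, 31.7 and 28.3 CPM to 16.4, 16.3 and 17.1 CPM, without overlap (-0.87 ± 0.07, adjusted p = 6.0e-06). FGFR1 (-0.37 ± 0.05), MET (-0.38 ± 0.06) and AXL (-0.43 ± 0.07) fell, and EPHB6 (0.54 ± 0.06) and ALK (0.43 ± 0.10) rose. EGFR had 12 counts over the parental and 7 over the resistant libraries and did not pass the count filter, and PDGFRA and KIT were not listed.

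The ERK pathway output list, transcripts induced by the MAP kinase ERK, had 3 of 27 members higher (11.1%) and 5 lower (18.5%), against 9.11% and 12.1% of all genes. HBEGF, a ligand of the EGF receptor, went from 49.4, 41.6 and 37.9 CPM to 24.8, 28.0 and 25.3 CPM (-0.72 ± 0.09, adjusted p = 0.00018). JUNB (-0.50 ± 0.08), EPHA2 (-0.37 ± 0.06) and the transcription factor ETV1 (-0.34 ± 0.07) fell, and ETV4 (0.25 ± 0.06) rose. Without resistant replicate 1, 6 members were higher, with the blocking term 7 and without a count filter 8. Immediate-early genes, the first to respond to growth signals, had 5 of 21 lower (23.8%) and 1 higher (4.76%), with ZFP36 at -0.71 ± 0.09 and NR4A3 at -0.76 ± 0.13. With the blocking term 9 of them were lower, without a count filter 8 and in the fit to all 12 libraries 3. The single higher member, NR4A2 (0.43 ± 0.13), lost its call without parental replicate 2 or 3 and without resistant replicate 1 or 2, where the count was 0.

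PI3K, AKT and mTOR genes, which carry growth signals to protein synthesis, had 3 of 32 members higher (9.38%) and 5 lower (15.6%), close to the 9.11% and 12.1% of all genes. The catalytic subunits PIK3CB (-0.42 ± 0.06) and PIK3CA (-0.26 ± 0.06) lie on chromosome 3. MTOR itself fell by 0.26 on the log2 scale, from 171, 169 and 177 CPM to 145, 141 and 146 CPM, and its partner MLST8 rose by 0.22 ± 0.05, a call lost without parental replicate 2. The higher count was 0 or 1 without parental replicate 1 or 2 and in the fit to all 12 libraries and 5 with the blocking term, and 3 were lower without parental replicate 3.

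Melanocyte lineage and pigment genes had 6 of 21 members lower (28.6%, against 12.1% of all genes) and 2 higher (9.52%, against 9.11%), at a median of -0.16. MITF directs the pigment programme and DCT is a melanin-synthesis enzyme. DCT went from 39.8, 45.4 and 43.7 CPM to 18.5, 18.7 and 17.9 CPM, with the resistant values close together and far below (-1.22 ± 0.07, adjusted p = 3.7e-07). MITF went from 30.2, 31.4 and 35.03 CPM to 24.1, 24.3 and 25.9 CPM (-0.38 ± 0.07, adjusted p = 0.0024). Its 20 neighbours on chromosome 3 had a median of -0.62, lower than MITF itself. S100B, the glial and melanocytic calcium binder, rose from 107, 112 and 113 CPM to 177, 186 and 168 CPM (0.68 ± 0.05). S100A1 fell by 0.58 on the log2 scale. SOX10 (-0.03, adjusted p = 0.82) had groups that overlap. The lower count was 3 and the higher 1 in the fit to all 12 libraries, where MITF and S100A1 lost their calls (adjusted p of 0.073 and 0.077).

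The list of the dedifferentiated melanoma state, a state low in MITF and high in AXL and NGFR, moved in both directions, with 6 of 24 members higher (25%) and 4 lower (16.7%), against 9.11% and 12.1% of all genes. NGFR, the neural crest receptor of neurotrophins, was at 37.3, 31.9 and 34.3 CPM in parental and 65.6, 76.3 and 68.5 CPM in resistant libraries. It rose without overlap (1.02 ± 0.07, adjusted p = 2.7e-06). AXL, a receptor kinase of the same state, went the other way, from 41.6, 35.9 and 40.7 CPM to 27.4, 30.4 and 29.9 CPM (-0.43 ± 0.07, adjusted p = 0.0011), and so did the transcription factor SOX9 (-1.05 ± 0.18), whose call was lost in the fit to all 12 libraries (adjusted p = 0.097). Without resistant replicate 3 the higher count was 3. The YAP/TAZ target list, read out by the transcription factors TEAD, had 4 of 29 higher (13.8%) and 3 lower (10.3%). Its members with the smallest adjusted p, F3 (-1.13 ± 0.13) and AXL, were lower, and TEAD1 (0.34 ± 0.06) and NT5E (0.34 ± 0.08) were higher.

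WNT and Notch genes each split. WNT signals stabilise beta-catenin, and several of its targets are secreted or intracellular brakes on the same pathway. Of 35 WNT genes 6 were higher (17.1%) and 10 lower (28.6%), against 9.11% and 12.1% of all genes. CTNNB1, which encodes beta-catenin, was at 621, 612 and 592 CPM in parental and 399, 401 and 402 CPM in resistant libraries, a fall of 0.60 on the log2 scale with hardly any spread (adjusted p = 2.8e-06). It lies on chromosome 3 among neighbours with a median of -0.41, as GSK3B does (-0.44 ± 0.05). The brakes DKK1 (-0.86 ± 0.10), NKD1 (-1.79 ± 0.24, at most 2.09 CPM) and NOTUM (-1.33 ± 0.28) fell off that chromosome, and the R-spondin receptor LGR4 rose (0.54 ± 0.08). In the fit to all 12 libraries 3 WNT genes were higher. Among 23 Notch genes 3 were higher (13.0%) and 5 lower (21.7%). The ligand JAG1 rose from 3.501, 3.96 and 3.26 CPM to 7.05, 6.28 and 5.71 CPM (0.82 ± 0.12), the ligand DLL3 changed by -0.53 ± 0.09, the target HES1 by -0.82 ± 0.17 and HES6 by 0.38 ± 0.08.

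Axon guidance genes, ligands and receptors that steer growing neurites, had 12 of 45 members lower (26.7%, against 12.1% of all genes) and 4 higher (8.89%, against 9.11%). Of the 45 members 8 lie on chromosome 3, and 7 of these were lower. Without that chromosome 5 members were lower, beside 1564 of the 16347 genes tested off it. ROBO2, a receptor of SLIT ligands, went from 14.4, 12.9 and 15.1 CPM to 7.13, 7.84 and 8.12 CPM (-0.87 ± 0.09, adjusted p = 5.1e-05), and ROBO1 (-0.58 ± 0.07) and PLXND1 (-0.57 ± 0.06) are on the same chromosome. SLIT3 on chromosome 5 fell by 0.64 on the log2 scale, and SEMA3C on chromosome 7 rose by 0.78 ± 0.12. The higher count was 2 without parental replicate 2 and 1 in the fit to all 12 libraries.

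Interferon response genes, many of them active against viruses, were lower in 13 of 41 members (31.7%, against 12.1% of all genes) and higher in 4 (9.76%, against 9.11%), at a median of -0.10. OAS3, a synthase of the RNase L activator, went from 45.2, 47.3 and 43.5 CPM to 20.8, 21.6 and 21.7 CPM, without overlap (-1.09 ± 0.06, adjusted p = 3.7e-07). Its neighbour and relative OAS1 changed by -1.597 ± 0.14 at 1.25 to 4.63 CPM, SAMD9 by -0.68 ± 0.07 and the ADP-ribosyl transferase PARP9, on chromosome 3, by -0.83 ± 0.07. ISG20 (0.59 ± 0.08) and IFITM1 (0.46 ± 0.12) rose. Without parental replicate 1, 6 members were lower, without resistant replicate 3, 7, and in the fit to all 12 libraries 8, while the higher count was 2 without parental replicate 1 or resistant replicate 2.

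MHC class I presentation, which brings peptides to the cell surface, had 6 of 21 members lower (28.6%, against 12.1% of all genes) and 2 higher (9.52%, against 9.11%). The peptide editor TAPBPL (-0.74 ± 0.10), the regulator NLRC5 (-0.47 ± 0.11) and the proteasome activator PSME1 (-0.23 ± 0.05) fell, and the chaperone CANX rose from 1546, 1542 and 1463 CPM to 1783, 1731 and 1703 CPM (0.20 ± 0.04). In the lower direction the count was 3 without resistant replicate 1 and 2 in the fit to all 12 libraries, where NLRC5 lost its call (adjusted p = 0.078). A single member was higher without parental replicate 2 or without resistant replicate 2 or 3. Of 5 tested MHC class II members 0 passed in edgeR, DESeq2 and limma-voom, and 0 had an unadjusted p below 0.05.

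Inflammatory and secreted factors had 8 of 27 members lower (29.6%, against 12.1% of all genes) and 4 higher (14.8%, against 9.11%). CXCL12, a chemokine that guides cells carrying CXCR4, was at 296, 296 and 293 CPM in parental and 130.3, 138 and 149 CPM in resistant libraries. Its fall left the groups far apart (-1.08 ± 0.05, adjusted p = 8.6e-08). PTGS2, the inducible prostaglandin synthase, went from 5.90, 6.56 and 5.68 CPM to 0.509, 0.659 and 0.941 CPM (-3.08 ± 0.18), and ANGPTL2 changed by -1.28 ± 0.13. IGFBP5, a carrier of insulin-like growth factors, rose from 1869.7, 1763 and 1967 CPM to 2627, 2781 and 2526 CPM (0.50 ± 0.05), a call lost in the fit to all 12 libraries (adjusted p = 0.47). The higher count was 2 in that fit.

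Lysosomal genes, which include the hydrolases and pumps of that organelle, were higher in 12 of 49 members (24.5%) and lower in 7 (14.3%), against 9.11% and 12.1% of all genes. The protease CTSD went from 444, 432 and 482 CPM to 658, 787 and 704 CPM (0.66 ± 0.07, adjusted p = 3.7e-05). The sulfatase IDS rose by 0.53 ± 0.05 and the mannosidase MAN2B1 by 0.51 ± 0.05, while the galactosidase GLB1 on chromosome 3 changed by -0.53 ± 0.06. ABC transporters, some of which export drugs, had 6 of 16 members higher (37.5%) and 2 lower (12.5%). ABCB4 (0.30 ± 0.06), ABCD4 (0.30 ± 0.06) and the drug exporter ABCC1 (0.23 ± 0.05) rose and ABCC5 on chromosome 3 fell (-0.61 ± 0.05). The drug pump ABCB1 did not pass (-0.14, adjusted p = 0.25), and ABCG2 did not pass the count filter. The higher count of transporters was 3 without parental replicate 1 and in the fit to all 12 libraries, and the lower count was 1 without parental replicate 1 or 2 or without resistant replicate 2 or 3.

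Fatty acid synthesis and handling had 11 of 34 members lower (32.4%, against 12.1% of all genes) and 4 higher (11.8%, against 9.11%), at a median of -0.19. Besides PPARG, the carnitine transferase CPT2 went from 52.8, 52.8 and 52.1 CPM to 38.7, 41.4 and 38.7 CPM (-0.41 ± 0.05). The neighbouring desaturases FADS1 (0.31 ± 0.04) and FADS2 (0.46 ± 0.05) on chromosome 11 rose. The 20 nearest expressed coding genes of each had a median of 0.17. Cholesterol synthesis and uptake had 6 of 25 members lower (24.0%) and 2 higher (8.0%). The regulator SREBF2 (-0.19 ± 0.05) lost its call without resistant replicate 3 and in the fit to all 12 libraries, and the reductase TM7SF2 (0.36 ± 0.09) lost it without parental replicate 2. The lower count for cholesterol was 2 or 3 without parental replicate 1 or without resistant replicate 2 or 3 and in the fit to all 12 libraries, and the higher count 0 or 1 without parental replicate 2 or 3 or without resistant replicate 1 or 3.

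Hypoxia and glycolysis genes were lower in 13 of 35 members (37.1%, against 12.1% of all genes) and higher in 0 in edgeR, DESeq2 and limma-voom (3 at an unadjusted p below 0.05), at a median of -0.12. The glucose transporter SLC2A1 went from 144, 123.3 and 132 CPM to 93.3, 92.0 and 93.6 CPM, without overlap (-0.52 ± 0.06, adjusted p = 5.9e-05). The lactate transporter SLC16A1 (-0.28 ± 0.04) and the phosphofructokinase PFKP (-0.29 ± 0.05) fell, and VHL (-0.43 ± 0.06), the ligase that removes hypoxia-inducible factors, lies on chromosome 3. The lower count was 8 without parental replicate 1, without parental replicate 3 and in the fit to all 12 libraries and 7 without resistant replicate 3, and 1 was higher without parental replicate 3 or resistant replicate 3. BNIP3L (-0.17 ± 0.05) lost its call without any parental replicate or without resistant replicate 1 or 2.

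Nuclear genes of the respiratory chain were lower in 10 of 44 members (22.7%) and mitochondrially encoded mRNAs in 4 of 13 (30.8%), against 12.1% of all genes. None of either list was higher in edgeR, DESeq2 or limma-voom, with 4 and 0 at an unadjusted p below 0.05. The complex III subunit UQCRC1, on chromosome 3, went from 181, 177 and 193 CPM to 129.6, 138 and 132 CPM (-0.46 ± 0.05). ATP5PB (-0.27 ± 0.04) and ATP5F1B (-0.26 ± 0.04) of ATP synthase and SDHB (-0.27 ± 0.04) of complex II lie on other chromosomes. The 20 nearest expressed coding genes of ATP5PB and of SDHB, both on chromosome 1, had medians of -0.15 and -0.12. Those of ATP5F1B on chromosome 12 had a median of -0.03. MT-CYB fell from 1782, 2022 and 1696 CPM to 1564, 1428 and 1321 CPM (-0.35 ± 0.07). The nuclear count was 5 without resistant replicate 3, and 1 member was higher without resistant replicate 2. The mitochondrial count was 2 in the fit to all 12 libraries, where MT-ND2 and MT-ND3 lost their calls. It was also 2 without parental replicate 1 or 2 or without resistant replicate 2 or 3, where MT-ATP8 (-0.38 ± 0.12) and MT-ND2 (-0.26 ± 0.08) lost their calls. The share of counts from mitochondrially encoded mRNAs was 2.74% to 3.30% in parental and 2.63% to 3.12% in resistant libraries.

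Cytosolic ribosomal protein genes were lower in 17 of 78 members (21.8%, against 12.1% of all genes) and higher in 0 in edgeR, DESeq2 and limma-voom (1 at an unadjusted p below 0.05). All 7 members on chromosome 3 were lower, among them RPL15 (-0.49 ± 0.04), RPL32 (-0.43 ± 0.04), RPL29 (-0.46 ± 0.05) and RPL14 (-0.42 ± 0.05). Without that chromosome 10 members were lower, beside 1564 of the 16347 genes tested off it. RPL15 was at 224, 207 and 214 CPM in parental and 156, 148 and 155 CPM in resistant libraries, without overlap. Without resistant replicate 3, 11 were lower. Ribosomal protein genes have many processed copies that can share reads.

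Stress and survival genes moved both ways. Of 31 NRF2 targets and glutathione genes, which detoxify oxidants, 8 were higher (25.8%) and 8 lower (25.8%), against 9.11% and 12.1% of all genes. The secreted peroxidase GPX3 rose from 65.8, 63.3 and 59.0 CPM to 122, 131 and 137 CPM (1.05 ± 0.06, adjusted p = 3.7e-07), and GSTP1 rose by 0.38 ± 0.05. The membrane transferase MGST1 fell from 391, 409.9 and 406 CPM to 214, 214 and 262 CPM (-0.81 ± 0.07), and the pentose phosphate enzyme TKT, on chromosome 3, by 0.54 on the log2 scale. Of 17 BCL2 family genes, which gate apoptosis, 5 were lower (29.4%) and 1 higher (5.88%). The anti-apoptotic BCL2 (-0.38 ± 0.07) and MCL1 (-0.18 ± 0.04) fell with the pro-apoptotic BAX. The lower count was 3 without parental replicate 1 or 2 or without resistant replicate 2 and in the fit to all 12 libraries, and the single higher call, BAD (0.29 ± 0.09), was lost in those 4 and without resistant replicate 3.

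Of 32 ER chaperones and unfolded protein response genes 5 were higher (15.6%) and 5 lower (15.6%), against 9.11% and 12.1% of all genes. Of the lower 5, 4 lie on chromosome 3, such as EDEM1 (-0.42 ± 0.05) and MANF (-0.34 ± 0.04), with EMC10 the exception. The disulfide isomerase PDIA4 rose from 1144, 1141 and 1143 CPM to 1406, 1516 and 1418 CPM (0.34 ± 0.04). The higher count was 2 or 3 without parental replicate 2 or 3 or without resistant replicate 1 or 3. Cytosolic chaperones had 3 of 23 higher (13.0%) and 3 lower (13.0%), with the chaperonin subunits CCT5 (0.17 ± 0.04) and CCT2 (-0.24 ± 0.04) on opposite sides. The 20 nearest expressed coding genes had a median of 0.14 for CCT5 and -0.09 for CCT2. The lower count of cytosolic chaperones was 5 without a count filter or with the blocking term, and 1 in the fit to all 12 libraries. ATF4 and amino acid stress genes had 2 of 28 higher (7.14%) and 5 lower (17.9%), the latter with CTH (-0.55 ± 0.08) of cysteine synthesis and SHMT2 (-0.22 ± 0.05). Their lower count was 2 or 3 in the 2 DESeq2 alternatives, in the fit to all 12 libraries and without any 1 library except resistant replicate 1, and their higher count 0 or 1 without parental replicate 2, without resistant replicate 1 or 3 and in the fit to all 12 libraries. The spliceosome core had 1 of 37 members higher (2.70%), LSM4 (0.23 ± 0.04), and 4 lower (10.8%), such as PRPF4 (-0.26 ± 0.04). The 20 nearest expressed coding genes of PRPF4 on chromosome 9 had a median of -0.26 as well. Without resistant replicate 3, 2 spliceosome members were higher and 2 lower.

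**Figure D3:**
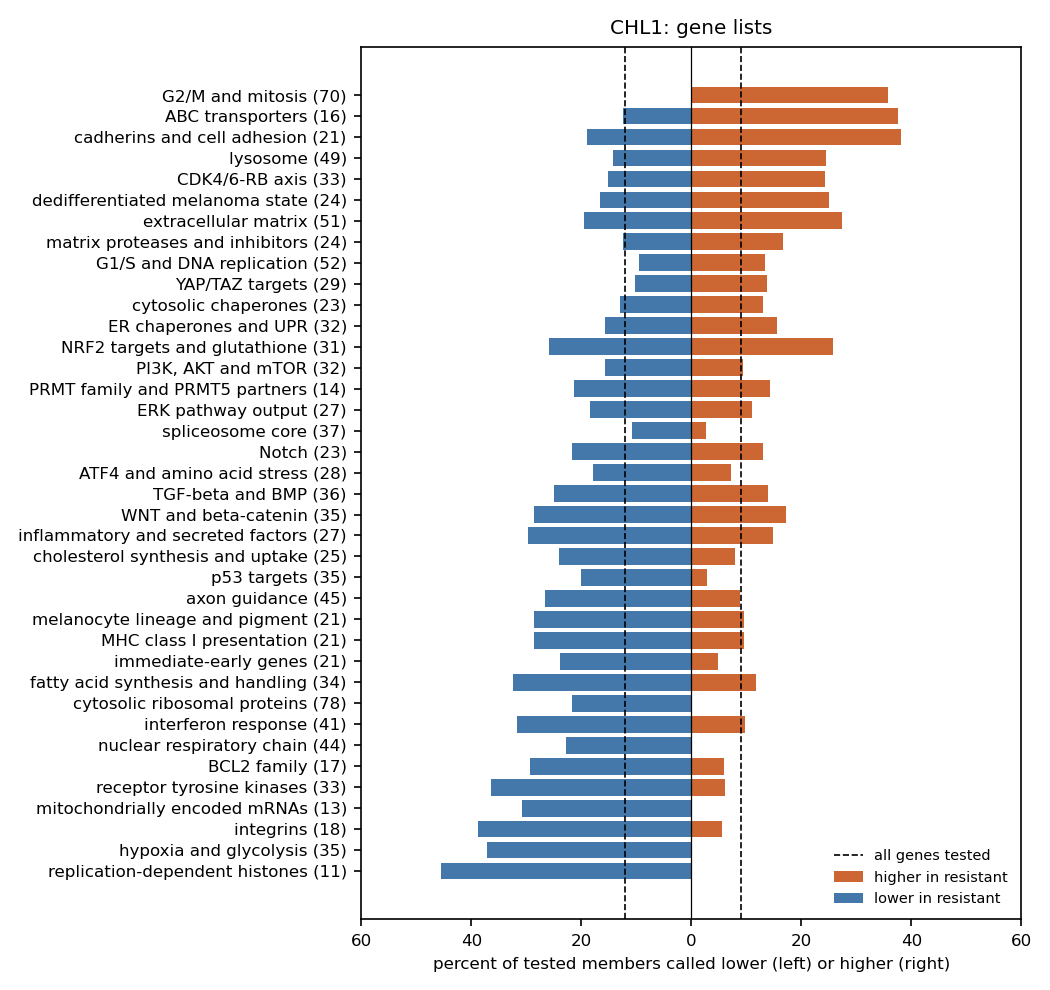
Percent of tested members called higher (orange, right) or lower (blue, left) in resistant CHL1 cells for each gene list of at least 10 tested members, with the number tested in brackets and dashed lines at the 9.11% higher and 12.1% lower of all genes tested. G2/M and mitosis shows 35.7% higher and 0 lower, and hypoxia and glycolysis 37.1% lower and 0 higher.

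Several genes given above lie on chromosome 3. Among coding genes of at least 1 CPM, 481 of 684 on chromosome 3 were lower (70.3%) and 18 higher (2.63%), against 15.2% lower and 11.1% higher over all chromosomes. Their median log2 fold change was -0.34, while the same genes had a median of -0.02 in A375. With its genes cut into 4 equal blocks in order from CHL1 to LMLN, the lower share was 74.9%, 78.4%, 73.7% and 54.4%. The count of lower genes ran from 418 to 503 over the alternatives. Of the 481, 12 reached a 2-fold change, PPARG and TIMP4 among them. Among the abundant members of the chromosome, EIF4G1, the scaffold of translation initiation, went from 1090.0, 1069 and 1101 CPM to 853, 862 and 862 CPM (-0.34 ± 0.04). The receptor phosphatase PTPRG went from 519, 491 and 539 CPM to 322, 289 and 302 CPM (-0.76 ± 0.05), and LRRN1 changed by -0.22 ± 0.04, a call lost in the fit to all 12 libraries (adjusted p = 0.40). Genes called higher on it included LSAMP (0.51 ± 0.09) and the transferrin gene TF (0.22 ± 0.06), named after their values were seen. Without chromosome 3, 1549 genes were higher and 1564 lower of 16347 tested.

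Other chromosomes showed smaller shares. Blocks 2 and 3 of 4 on chromosome 9 had 47.2% and 43.3% of genes lower, and ANXA1, an annexin on that chromosome, rose from 1014, 928 and 968 CPM to 1484, 1335 and 1356 CPM although 13 of its 20 neighbours were lower. On chromosomes 1, 12 and 13, 24.5%, 23.4% and 21.1% of coding genes were lower. On chromosomes 11 and 21, 22% and 21.9% were higher.

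**Figure D4:**
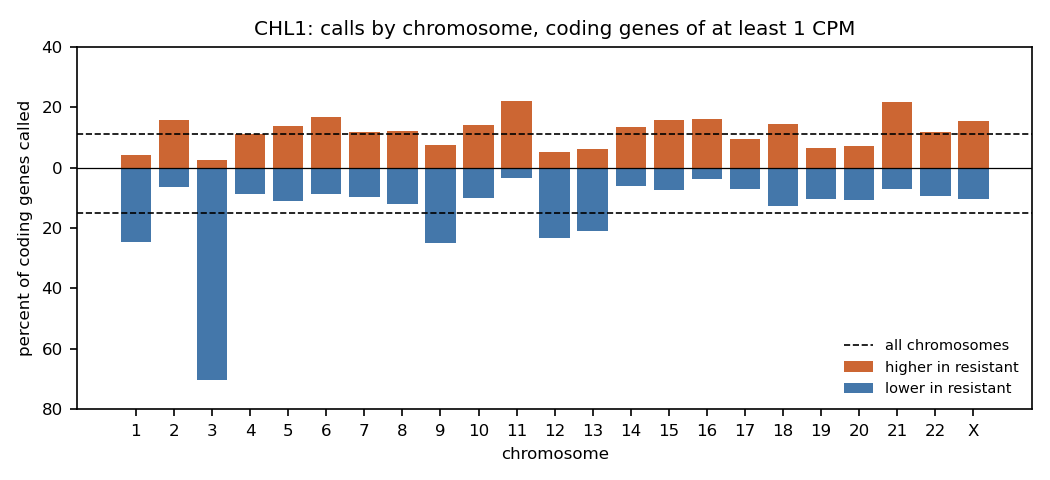
Percent of coding genes of at least 1 CPM called higher (orange, up) or lower (blue, down) in resistant CHL1 cells on each chromosome, with dashed lines at the 11.1% higher and 15.2% lower of all chromosomes. Chromosome 3 stands apart with 70.3% lower.

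Among called coding genes whose groups did not overlap, the 8 highest gains and 8 deepest losses in CPM were in abundant mRNAs. MT-ND2, whose groups overlapped, had a deeper loss, from a mean of 3035 CPM in parental to 2532 CPM in resistant libraries. ITIH5, a hyaluronan-binding inter-alpha-trypsin inhibitor chain, rose from 1582, 1572 and 1643 CPM to 2205, 2529 and 2499.8 CPM (0.59 ± 0.06, adjusted p = 1.9e-05). PLAT rose from 747, 710.5 and 695 CPM to 1079, 1164 and 1073 CPM, and CRYBG1 from 1062, 1049 and 1038 CPM to 1443, 1382 and 1409.5 CPM. With ANXA1, IGFBP5, CTSD and PDIA4 already given, the chaperone HSP90B1 made the eighth gain, at 0.15 ± 0.05. That call was lost without any parental replicate and without resistant replicate 1 or 2 (adjusted p up to 0.12). Among the losses ODC1, the first enzyme of polyamine synthesis, went from 678, 618 and 578 CPM to 428, 413 and 415 CPM (-0.58 ± 0.06). The glycolytic enzyme ENO1 changed by -0.18 ± 0.04 and the lactate dehydrogenase subunit LDHB by -0.14 ± 0.04. The LDHB call was lost without parental replicate 1 or 2 and without resistant replicate 2 or 3.

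The resistant lines had unequal selection times, 3 months in CHL1 and 7 months in A375, and line and selection time cannot be told apart here. The difference between the lines was tested as an interaction over all 12 libraries, and 4536 of 19241 genes passed (23.6%). In A375 on its own 5111 of 18086 genes were called (28.3%). Of the genes called in CHL1, 3378 were tested in A375 and 1233 were called there, 652 with the same sign. Of 284 genes called at 2-fold in CHL1 and present in the joint fit, 147 differed between the lines.

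CDK6 and CCNE1 both differed. CDK6 changed by 1.39 in CHL1 and by -0.09 in A375, where its mean was 323 CPM in parental and 304 CPM in resistant cells (difference 1.48, adjusted p = 3.6e-06). CCNE1 rose in both lines, by 1.59 in CHL1 and 0.71 in A375, and more in CHL1 (difference 0.88, adjusted p = 1.7e-05). CDKN1A and MDM2 went the other way, with 0.12 and -0.17 in CHL1 against 0.74 and 0.75 in A375 (adjusted p of the difference 0.0026 and 7.5e-06). RB1 fell in both lines, by less in CHL1 (difference 0.33, adjusted p = 0.013).

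Some of the strongest CHL1 changes had the opposite sign in A375. BMP7 changed by -4.72 in CHL1 and 0.99 in A375 (difference -5.71, adjusted p = 3.4e-08), and PPARG by -3.06 and 0.37 (difference -3.42, adjusted p = 3.4e-08). PCDH10 changed by 1.65 in CHL1 and -0.81 in A375, LAMA2 by 1.34 and -1.25, MMP2 by 1.19 and -0.49 and NGFR by 1.02 and -2.71. LAMA2 was low in A375, at means of 3.47 CPM in parental and 1.45 CPM in resistant cells. BMP7 was lower still in parental A375, at 1.205 CPM, and had 2.399 CPM in resistant A375 cells. Its opposite sign in A375 therefore rests on a low level. The difference for NGFR was 3.74 (adjusted p = 9.0e-09). PTGS2 changed by -3.08 and 3.52 (difference -6.60, adjusted p = 3.2e-06). Its A375 means were 1.302 CPM in parental and 14.9 CPM in resistant cells. FN1 rose by 1.77 in CHL1 and 1.72 in A375, with a difference of 0.06 that did not pass (adjusted p = 0.91). EMC10 fell in both, with -4.91 in CHL1 and -6.06 in A375. Among genes called at 2-fold in CHL1 and not called in A375, FSTL1, OSMR and CLEC2B rose in CHL1. In the same class OXCT1, SEC14L4 (-1.48 ± 0.09), the receptor GPR158 (-1.303 ± 0.09) and the BMP antagonist NBL1 (-1.21 ± 0.11) fell.

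**Figure D5:**
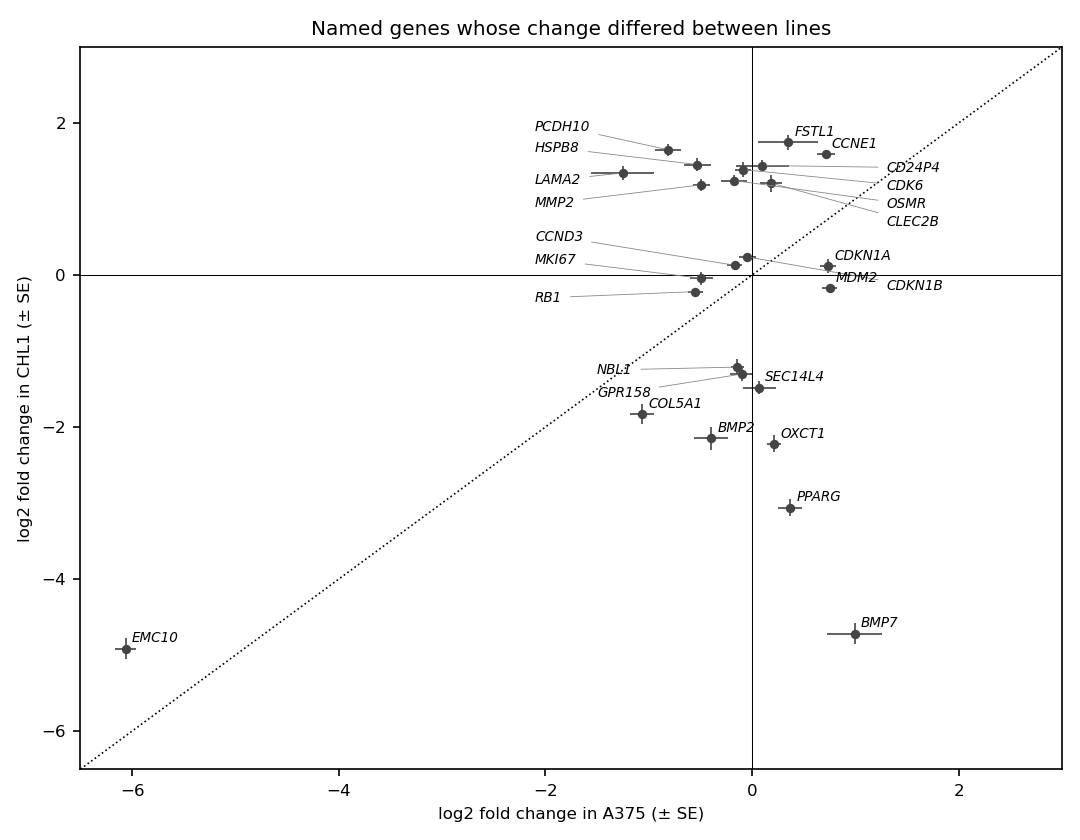
Log2 fold change of resistant over parental in CHL1 (vertical) against that in A375 (horizontal), ± SE, for named genes whose change differed between the lines and that were tested in both, with a dotted line where the changes are equal. BMP7, whose level in A375 was low, lies at -4.72 in CHL1 and 0.99 in A375, and CDK6 at 1.39 and -0.09.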

How the data were processed

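The deposited table holds raw counts per Ensembl gene for the 6 CHL1 libraries, whole numbers without normalisation, made by the authors from total RNA with the TruSeq RNA v2 kit, per the labels' protocols. Per the submitters' processing notes, HTSeq 0.5, TopHat2, limma, cutadapt 1.7 and CASAVA 1.8.2 were used, in roles that are not stated. Which genome build and annotation the reads were set against is not given in the sources used here. The table lists 32478 genes, and 2284 identifiers with 1.38% of the counts matched no symbol in a table of gene names or in GENCODE release 29, which also gave gene type and order along chromosomes. The kit does not mark the strand, so reads of overlapping genes on opposite strands, like those of near-identical copies, cannot be told apart. Reads carry no molecular identifiers, so counting intervals and floors cover counting error only.

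Resistant was tested against parental in R 4.3.3 with edgeR 4.0.16 (TMM factors, 0.993 to 1.013, filterByExpr with a minimum count of 10, quasi-likelihood F-test, two-sided, Benjamini-Hochberg adjusted p below 0.05). The SE is the absolute log2 fold change over the square root of F. The difference between lines is the interaction term of a fit to the 12 libraries. Gene lists are described by counts of members called beside the same over all genes tested, with no set test. The members, the 43 lists and the tests were chosen with earlier results of these data known, so no list is independent evidence. Alternatives were DESeq2 1.42.0, its size factors in edgeR, no count filter, a filter of 1 CPM in 3 libraries, limma-voom (limma 3.58.1), the replicate number as a block, all 12 libraries in 1 fit and each library left out. Simulated data over the 17219 genes of this comparison had 200 changed genes. Of those changed 1.5-, 2-, 4- and 8-fold, 78%, 86%, 98% and 100% were recovered, and 17 unchanged genes were called (8.59% of calls). No smaller change was simulated, and far more genes, 3645, were called in the data, so these shares need not hold there. Every pair of replicates differed by more than sampling noise (chi-square per degree of freedom from 5.70 to 17.1).

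Named genes were a panel of 18, the 15 highest and 15 lowest fold changes among called genes of at least 10 CPM in the higher group with no overlap and an established symbol, and the 8 highest and 8 lowest differences in CPM. To these came up to 4 called members per list and up to 6 genes per direction called at 2-fold in CHL1 and not in A375. Any further gene in the text was picked with its values in view, and the results of some named genes are not reported here. Promoters came from RefSeq in GRCh38.p14 and were searched in the 250 bases before the start with Python 3.11.15.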

Additional observations from a re-analysis of the deposited data

Results flagged for a closer look

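Each value here is the log2 fold change in CHL1 minus that in A375 with edgeR's adjusted p from the 12-library fit. It was set apart because the effect of resistance differed between the lines. The direction of each called change, or that none was called or tested, is given in the text or here. Among genes of the cell cycle the CHL1 change was above that in A375 for CDK6 (1.48, adjusted p = 3.6e-06), CCNE1 (0.88, adjusted p = 1.7e-05), CDKN1B (0.29, adjusted p = 0.037), CCND3 (0.30, adjusted p = 0.038), RB1 (0.33, adjusted p = 0.013) and MKI67 (0.45, adjusted p = 0.049). It was below for CDKN1A (-0.61, adjusted p = 0.0026) and MDM2 (-0.92, adjusted p = 7.5e-06). CCND3 was called in neither line (0.13 in CHL1 and -0.17 in A375). MKI67 was not called in CHL1 and was called lower in A375 (-0.49, edgeR's adjusted p = 0.0092 in the A375 fit). CDKN1B was not called in A375 (-0.04).

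Among genes that rose in CHL1 the difference was positive for PCDH10 (2.47, adjusted p = 1.3e-07), HSPB8 (1.99, adjusted p = 1.3e-06), LAMA2 (2.60, adjusted p = 2.9e-05), MMP2 (1.68, adjusted p = 6.1e-07) and FSTL1 (1.40, adjusted p = 0.01). It was positive as well for OSMR (1.418, adjusted p = 2.1e-05), CLEC2B (1.03, adjusted p = 0.00031) and CD24P4 (1.34, adjusted p = 0.00077). Of these 8, PCDH10, HSPB8, LAMA2 and MMP2 were called lower in A375, and the other 4 were not called there.

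Among genes that fell in CHL1 the difference was negative for UTS2 (-8.75, adjusted p = 2.7e-07), BMP7 (-5.71, adjusted p = 3.4e-08), PPARG (-3.42, adjusted p = 3.4e-08), OXCT1 (-2.43, adjusted p = 2.7e-08), BMP2 (-1.75, adjusted p = 0.00015) and COL5A1 (-0.76, adjusted p = 0.0095). The same held for CRABP1 (-2.78, adjusted p = 0.0057), DCT (-3.34, adjusted p = 0.00011), SEC14L4 (-1.54, adjusted p = 2.3e-05), GPR158 (-1.20, adjusted p = 3.6e-05) and NBL1 (-1.06, adjusted p = 4.5e-05). BMP7 and PPARG were called higher in A375, BMP7 at a low level, and COL5A1 lower. UTS2, CRABP1 and DCT did not pass the count filter of the A375 fit, so their A375 side rests on few counts. EMC10 had a difference of 1.15 with an adjusted p of 0.0026 and fell in both lines, further in A375. Groups of 3 libraries are too small for a test of single outlying samples.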

How the results depend on the processing

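The 3645 called genes became 2551 to 4305 over 13 alternatives, the 296 at 2-fold 203 to 412 and the 4536 that differed between lines 3760 to 5364, and no such count moved by more than 1.5 times. Of 190 named genes called, 159 were called in every alternative and 31 lost the call at least once. Of 10 not called, 2 gained one. The sign turned in 3 named genes that were not called. MDM4 was 0.0020 with DESeq2, 0.0013 with DESeq2 size factors, 0.00055 with all 12 libraries and ran from -0.13 to 0.079 with each library left out. Left out in turn, SOX10 ran from -0.10 to 0.054 (above 0 without resistant replicate 1 or parental replicate 3) and MKI67 from -0.15 to 0.053 (above 0 without resistant replicate 2). The labels give each group the same 3 S numbers, called replicates 1 to 3 here, and do not say whether they pair the libraries. Deviations from the group means correlated at 0.15, 0.0066 and 0.033 between libraries of the same number. The first was the highest over all pairs of a parental and a resistant library. Not every library correlated best with its own number, and parental replicate 3 reached 0.07 with resistant replicate 2. Deviations of 3 libraries from their mean sum to 0, so these values cannot settle whether the numbers pair the libraries. With the replicate number as a block 4305 genes were called (1900 higher and 2405 lower), 294 at 2-fold, and 5364 differed between lines. The median log2 fold change of the adhesion list (0.18) was below 0 in 5 alternatives, -0.08 to -0.05, and that of the cholesterol list (-0.12) was 0.03 without parental replicate 1. The cause was not tested. Depth limits values below about 0.117 CPM, where a library holds 3 counts or fewer.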

Other observations

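Some genes below 10 CPM had large changes too, and they are named here after their values were seen. The T cell costimulator ICOS had 583 counts over the 3 parental libraries and 6 over the resistant ones, a depth-corrected ratio of 97.3 with an exact 95% interval for counting error of 44.4 to 266.2. The olfactory receptor gene OR2C3 had 257 and 3 counts and LRRN3 had 77 and 1, a ratio of 77.1 (13.4 to 3084). VRTN had 0 counts in the parental and 57 in the resistant libraries, at least 19.0-fold higher with a floor of 3 counts over the group.

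TP73, a member of the p53 family, was at 6.42, 5.51 and 6.21 CPM in parental and 0.548, 0.416 and 0.453 CPM in resistant libraries (-3.67 ± 0.17). The calcium channel TRPV4 went from 9.30, 10.3 and 9.59 CPM to 0.862, 1.07 and 0.697 CPM (-3.46 ± 0.14), and the receptor CNTFR changed by -2.79 ± 0.20. The cytidine deaminase CDA (-2.58 ± 0.19), the neuropeptide gene GAL (-2.39 ± 0.16) and the receptor kinase FLT3 (-2.19 ± 0.15) fell too. SOCS2, a feedback inhibitor of cytokine receptors, rose from 1.75, 1.26 and 0.997 CPM to 7.29, 6.28 and 5.09 CPM (2.20 ± 0.20). In each of TP73, TRPV4 and SOCS2 the groups did not overlap.

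Keratinocyte markers, some of which melanoma lines also express, had 1 of 8 tested members higher (12.5%) and 2 lower (25%), against 9.11% and 12.1% of all genes. KRT14 rose from 1.48, 2.34 and 1.15 CPM to 2.62, 4.33 and 3.45 CPM, and KRT8 changed by -0.70 ± 0.15. Without parental replicate 3 there were 2 higher and 1 lower, and without resistant replicate 1, 1 lower. Of 5 leukocyte and 2 endothelial markers tested 0 passed in edgeR, DESeq2 and limma-voom, and 1 of each was lower at an unadjusted p below 0.05. Without parental replicate 2, 1 leukocyte marker was lower, and without parental replicate 3, 1 endothelial marker.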
